A study of Mus musculus with 12 samples.

Results

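Matrix metalloproteinases (MMPs) and their tissue inhibitors (TIMPs) were read in bulk brain RNA as 10 genes chosen by name from 25749 listed genes: the proteases Mmp2, Mmp3, Mmp8, Mmp9, Mmp12, Mmp14 and Mmp19 and the inhibitors Timp1, Timp2 and Timp3. All 10 were present in the deposited tables of all 12 libraries. The members and the other gene lists were chosen with earlier results of these data known. Their counts of called genes, set beside shares of all genes, are therefore descriptions and no test. The groups were injured mice given anti-LFA1/VLA4 continuously (called antibody-treated here), injured mice for which the labels name no agent, and uninjured mice, with 4 male B6 mice aged 13 weeks in each and no other allele or treatment named. Tissue was taken on day 20 after the cerebrovascular injury, following saline perfusion, as a cube with edges of 3 mm, and the protocol speaks of injured tissue without saying where the uninjured cube was cut. LFA1 and VLA4 are integrins that leukocytes use to attach to vessel walls. The labels do not name the injury model, the antibody clones or a control antibody.

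MMPs are zinc-dependent proteases that cut collagens, laminins and other matrix proteins, and most are made as inactive proforms. TIMPs bind the active site of MMPs and block it. In the brain, MMPs are known for opening the vascular basement membrane and for later tissue remodelling. Mmp14 is anchored in the cell membrane and activates the proform of Mmp2 with Timp2 as a bridge, Mmp2 and Mmp9 are gelatinases, Mmp3 is a stromelysin, Mmp8 is the neutrophil collagenase, Mmp12 is the macrophage elastase, and Mmp19 is a secreted protease with basement membrane substrates.

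Mmp3, Mmp8 and Mmp12 lie in a cluster of 10 MMP genes on chromosome 9 (chr9:7272514-7699585, build GRCm38, 427 kb), and the other members lie on other chromosomes. RefSeq promoter windows (GRCm38.p6, 250 bases before to 50 after each start) were available for 7 of the 10 members, and none was available for Mmp2, Mmp9 and Mmp19. The AP-1 motif TGANTCA, which reads the same on both strands, was found in 7.81% of 32851 windows of 27025 genes. It was present in the Mmp3 window and in 1 of the 2 Mmp12 windows. In the chromosome 9 cluster 8 of 10 MMP genes held a match, 35 to 95 bases before the start, and Mmp8 and Mmp27 held none. None of the 12 other MMP and TIMP genes with a window held a match. The matching windows of Mmp3 and Mmp12 and the window of Mmp14 are shown with the motif in capitals (Mmp3 chr9:7445572-7445871, Mmp12 chr9:7347124-7347423 and Mmp14 chr14:54431348-54431647, all on the plus strand). The windows of Mmp8, Mmp14, Timp1, Timp2 and Timp3 and the other Mmp12 window hold no match. Of these, Timp1 was called higher in antibody-treated than in injured tissue and Mmp14 was not. The part of the motif in the member differences was not tested. A match is a description of letters, not a measured binding site.
Mmp3: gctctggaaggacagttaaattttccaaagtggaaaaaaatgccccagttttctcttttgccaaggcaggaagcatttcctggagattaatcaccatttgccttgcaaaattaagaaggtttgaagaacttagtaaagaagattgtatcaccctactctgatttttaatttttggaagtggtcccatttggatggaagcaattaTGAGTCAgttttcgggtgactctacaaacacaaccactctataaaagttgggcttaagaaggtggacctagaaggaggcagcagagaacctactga
Mmp12: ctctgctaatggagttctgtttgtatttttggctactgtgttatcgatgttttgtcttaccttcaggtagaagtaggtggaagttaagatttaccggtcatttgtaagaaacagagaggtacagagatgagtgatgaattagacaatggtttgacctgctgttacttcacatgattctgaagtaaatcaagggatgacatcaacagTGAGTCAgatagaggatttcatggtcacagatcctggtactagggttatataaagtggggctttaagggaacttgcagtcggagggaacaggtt
Mmp14: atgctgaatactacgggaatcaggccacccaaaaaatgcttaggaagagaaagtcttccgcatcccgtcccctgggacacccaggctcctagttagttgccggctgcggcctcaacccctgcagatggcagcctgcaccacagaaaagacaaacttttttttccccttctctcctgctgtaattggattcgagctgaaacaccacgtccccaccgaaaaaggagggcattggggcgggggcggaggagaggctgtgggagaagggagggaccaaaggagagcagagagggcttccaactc

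Exon reads ranged from 13330379 to 13917157 in antibody-treated, 15507462 to 16121577 in injured and 15159988 to 15781229 in uninjured libraries, so antibody-treated libraries were the shallowest. Reads across exon junctions were 22.6 to 25.7% of exon reads in antibody-treated, 27.5 to 30.9% in injured and 25.2 to 26.2% in uninjured libraries. The injured libraries lay above both other groups, and the part of depth or junction share in the member differences was not tested. Uninjured replicate 1 and antibody-treated replicate 4 were the 2 extremes of the first principal component (38.3% of the variance). Markers of neurons (5122 to 6196, 5627 to 6436 and 5818 to 6355 summed TPM in antibody-treated, injured and uninjured libraries) and of oligodendrocytes were present in every library. In these bulk samples, more cells of a type and more RNA per cell cannot be told apart.

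Per unit length, transcripts of the 3 TIMPs exceeded those of the 7 MMPs in every library. TPM, which is scaled to transcript length and so allows levels of different genes to be compared, summed over the 3 inhibitors to 247 ± 29.8 in antibody-treated, 257 ± 17.2 in injured and 218 ± 13.6 in uninjured libraries (SD, n = 4 each). The 7 proteases summed to 30.9 ± 1.06 TPM in antibody-treated, 19.2 ± 1.88 in injured and 10.7 ± 1.37 in uninjured libraries. The protease sums of the 3 groups did not overlap, with 29.4 to 31.7 TPM in antibody-treated, 16.9 to 21.4 in injured and 8.90 to 12.2 in uninjured libraries. The ratio of the inhibitor sum to the protease sum was 7.99 ± 0.82 in antibody-treated, 13.4 ± 0.50 in injured and 20.6 ± 1.57 in uninjured libraries, again with no overlap between groups. These sums and ratios describe the chosen members and were not tested. TPM also carries a shift over all genes between groups. On log2(TPM + 1) the median change of all tested genes was 0.16 in injured against uninjured tissue. It was -0.13 in antibody-treated against injured tissue. With the scaling used for the tests below these medians were 0.03 and 0.01. The other MMPs and Timp4 (17 genes) summed to 118 to 136 TPM in antibody-treated, 140 to 176 in injured and 130 to 137 in uninjured libraries. The member ratio is therefore not a ratio for the whole family.

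**Figure D1:**
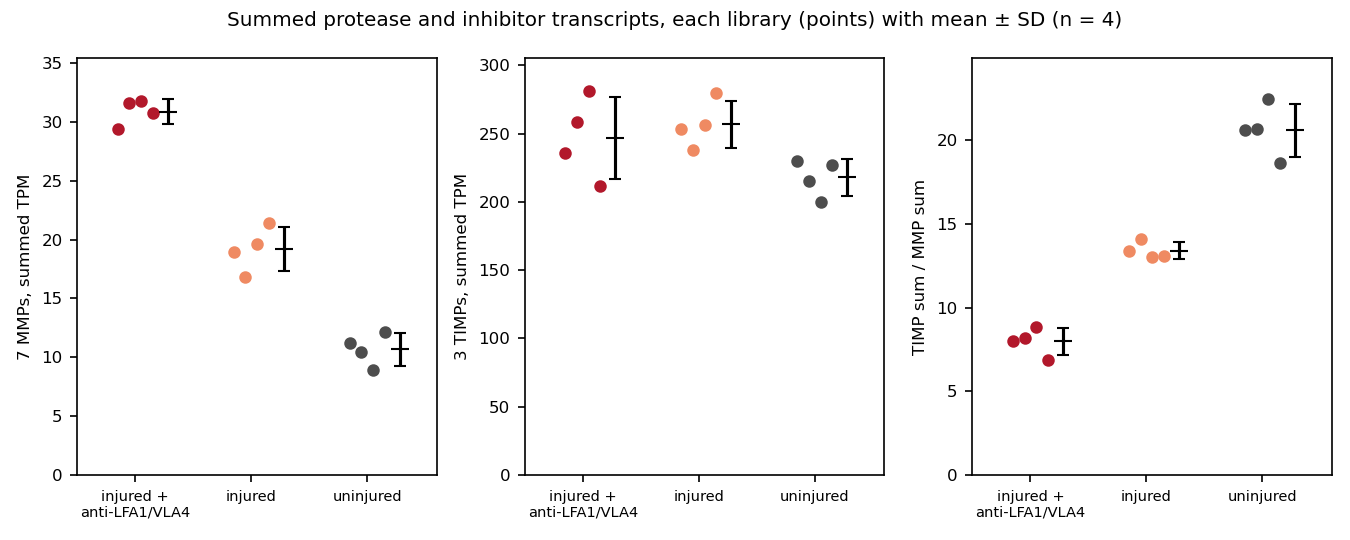
Summed TPM of the 7 MMPs, summed TPM of the 3 TIMPs and their ratio in each library (points), with mean ± SD of 4 libraries beside them, for antibody-treated injured, injured and uninjured mice from left to right. The protease sums of the groups do not overlap (29.4 to 31.7, 16.9 to 21.4 and 8.90 to 12.2 TPM), while the inhibitor sums do. The TPM values are not corrected for the shift of all genes between groups.

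A few genes carried these sums. Timp2 was the most abundant member in every group, with 184 ± 19.6 TPM in antibody-treated, 200.4 ± 15.5 in injured and 159 ± 8.94 in uninjured libraries. Timp3 was next, with 55.0 ± 12.3, 52.4 ± 2.92 and 57.3 ± 5.36 TPM in the same order. Mmp14 was the most abundant of the 7 proteases, with 10.1 ± 1.06 TPM in antibody-treated, 11.2 ± 1.59 in injured and 5.32 ± 0.60 in uninjured libraries. It made up 32.5 ± 2.58% of the protease sum in antibody-treated, 58.1 ± 2.74% in injured and 50 ± 2.2% in uninjured libraries. In antibody-treated libraries Mmp2 (9.20 ± 0.74 TPM) overlapped Mmp14, Timp1 (8.01 ± 2.25 TPM) overlapped Mmp2, and Mmp3 (6.57 ± 1.0 TPM) overlapped Timp1 in level. In injured libraries Mmp14 stood clear of Timp1 (3.98 ± 0.82 TPM) and Mmp2 (3.54 ± 0.43 TPM), which overlapped each other, and Mmp3 (2.06 ± 0.49 TPM) lay below both. In uninjured libraries Mmp2 (2.30 ± 0.57 TPM), Timp1 (1.84 ± 0.39 TPM) and Mmp3 (1.58 ± 0.26 TPM) each overlapped their neighbour in that order. Mmp9, Mmp19, Mmp12 and Mmp8 were the 4 lowest members in every group, and Mmp8 averaged under 1 TPM in all 3.

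**Figure D2:**
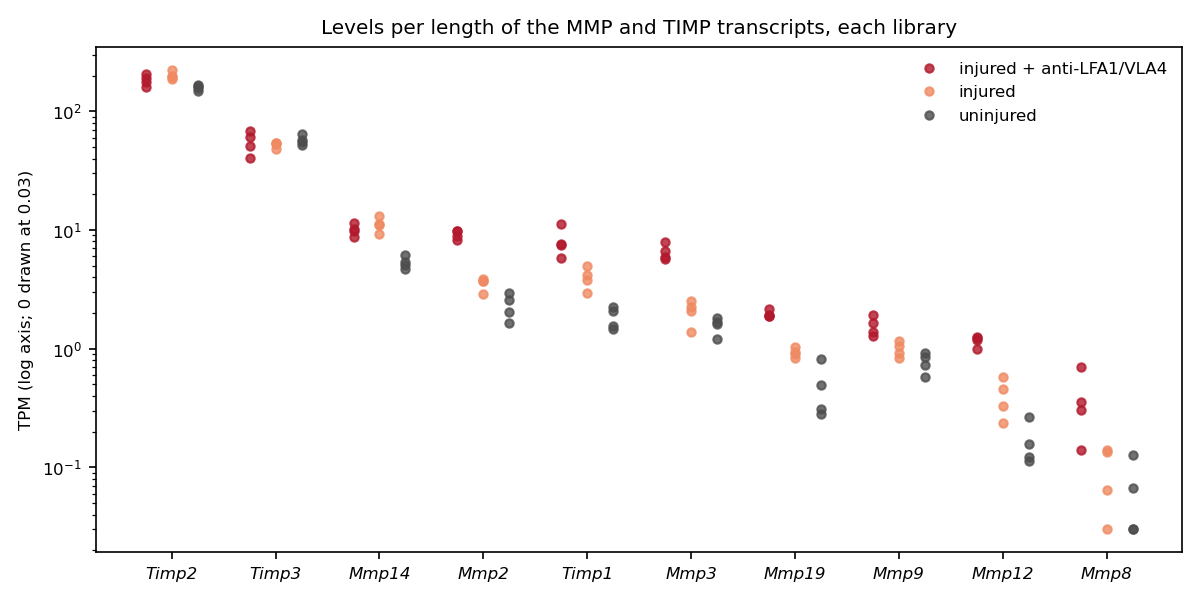
TPM of each member in each library on a log axis, members ordered by their mean over all libraries and groups from left to right as antibody-treated injured, injured and uninjured; values of 0 (Mmp8 only) are drawn at 0.03. Timp2 and Timp3 lie above each of the 7 MMPs in every library, and Mmp8 lies lowest.

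The first comparison asked what continuous anti-LFA1/VLA4 changed in injured tissue. Among the 7 proteases, 5 (Mmp2, Mmp3, Mmp9, Mmp12 and Mmp19) were higher in antibody-treated than in injured tissue, by 1.75-fold to 3.57-fold. Timp1 was also higher, and 0 members were lower, also at an unadjusted edgeR p under 0.05. That made 6 of 10 members higher at an adjusted p under 0.05, where 10.9% of 14771 tested genes were called higher and 10.7% lower. The members were chosen with earlier results of these data known, so this excess is a description and no test. Mmp12 is 1 of the 6 and passed the count filter only through the antibody-treated libraries, so its call is no support for a difference. The libraries of the groups did not overlap for 7 of 10 members, all higher, against 10.6% of tested genes higher and 11.4% lower without overlap. These 7 include Mmp8, which is not among the tested genes, and Mmp12, which is among them only through the antibody-treated libraries. Mmp14, Timp2 and Timp3 were tested and not called, and Mmp8 had too few reads for the test. The median log2 fold change was 1.17 over the 9 tested members and 0.01 over all tested genes. The 9 include Mmp12, so the member median is a description and no support for a difference. Differences are given in normalised CPM (reads scaled by library total and TMM factor), and each log2 fold change from edgeR is given with its standard error (SE).

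Mmp2, gelatinase A, had 11.8, 12.3, 11.7 and 11.2 CPM in antibody-treated libraries, against 3.38, 4.79, 4.22 and 3.96 CPM in injured libraries. The groups did not overlap, and the antibody-treated values spread little around their mean of 11.7 ± 0.46 CPM (SD, n = 4). Its log2 fold change was 1.52 (SE 0.14, edgeR adjusted p = 1.47e-05), with a 95% interval of 2.35-fold to 3.51-fold.

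Mmp3, stromelysin-1, which also activates other MMP proforms, had 4.59, 4.91, 3.99 and 6.30 CPM in antibody-treated libraries, against 1.40, 0.996, 1.69 and 1.42 CPM in injured libraries. Every antibody-treated library lay above every injured library, and replicate 4 was the highest. The log2 fold change was 1.84 (SE 0.19, edgeR adjusted p = 4.23e-05), the largest among the tested members in this comparison.

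Mmp12, the macrophage elastase, had 2.19, 2.06, 1.85 and 1.8 CPM in antibody-treated libraries, against 0.892, 0.747, 0.361 and 0.473 CPM in injured libraries. The groups did not overlap (log2 fold change 1.67, SE 0.26, edgeR adjusted p = 0.000892). Mmp12 reached the filter's level of 0.647 CPM in 4 antibody-treated, 2 injured and 0 uninjured libraries, so it passed the filter through the group in which it was high. Its call is therefore no support for a difference.

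Mmp19 had 2.77, 3.06, 2.57 and 2.85 CPM in antibody-treated libraries, against 1.34, 1.24, 1.2 and 1.01 CPM in injured libraries, without overlap (log2 fold change 1.23, SE 0.22, edgeR adjusted p = 0.00222). Its exons share 789 bases with Tmem198b and 212 with Gm47093, both on the opposite strand, and whether strand was used in counting is not stated in the labels or files. Tmem198b was lower in antibody-treated than in injured tissue (8.72 ± 0.37 and 10.5 ± 0.071 CPM, log2 fold change -0.26, edgeR adjusted p = 0.0426).

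Mmp9, gelatinase B, had 2.77, 2.28, 1.78 and 1.88 CPM in antibody-treated libraries, against 1.46, 1.12, 1.14 and 1.24 CPM in injured libraries. The groups did not overlap, but the lowest antibody-treated and the highest injured value lay close together. The log2 fold change was 0.81 (SE 0.20, edgeR adjusted p = 0.0120), the smallest of the called proteases, and a test against a fold of 1.2 gave an adjusted p of 0.0865.

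Mmp8, the neutrophil collagenase, had 10, 5, 4 and 2 reads in antibody-treated libraries, against 2, 1, 2 and 0 reads in injured libraries. In TPM the groups averaged 0.376 ± 0.235 and 0.0844 ± 0.066 and did not overlap, although antibody-treated replicate 4 held no more reads than 2 of the injured libraries. An exact two-sided permutation test of TPM gave p = 0.0286, the smallest that 4 against 4 allows, and 0.0429 adjusted over the 3 comparisons of this gene. With this few reads counting error is large, and the size of the difference was not well determined.

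Timp1, the inducible inhibitor that also binds the proform of Mmp9, had 2.84, 2.77, 2.0 and 4.35 CPM in antibody-treated libraries, against 1.40, 1.06, 1.63 and 1.18 CPM in injured libraries. The groups did not overlap, and replicate 4 was again the highest (log2 fold change 1.17, SE 0.24, edgeR adjusted p = 0.00435). Timp1 lies wholly inside Syn1, which is on the opposite strand, but no exon base is shared.

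Mmp14 had 17.2, 18.4, 20.0 and 20.5 CPM in antibody-treated libraries, against 18.9, 17.1, 18.9 and 21.1 CPM in injured libraries. The ranges overlapped almost fully, and the log2 fold change was 0.00 (SE 0.09, edgeR adjusted p = 0.990), with a 95% interval of 0.88-fold to 1.14-fold. With a GC content and length trend removed from each library it was 0.23 (adjusted p = 0.0348), and on log2(TPM + 1) it was -0.14. Mmp14 was also the only member with many intron reads, 42.3% of its exon and intron reads, against at most 6.01% in the other members. Its intron reads numbered 218, 222, 196 and 308 in antibody-treated, 173, 205, 170 and 184 in injured, and 101, 118, 134 and 96 in uninjured libraries.

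Timp2, the most abundant inhibitor, had 297, 305, 310 and 275 CPM in antibody-treated libraries, against 285, 292, 285 and 303 CPM in injured libraries. The ranges overlapped (log2 fold change 0.03, SE 0.05, edgeR adjusted p = 0.770), with a 95% interval of 0.94-fold to 1.10-fold. With the GC and length trend removed the change was 0.14 (adjusted p = 0.0263).

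Timp3, an inhibitor that binds to the matrix and also blocks some ADAM proteases, had 108, 123, 131 and 87.4 CPM in antibody-treated libraries, against 101, 95.3, 99.4 and 91.8 CPM in injured libraries. Antibody-treated replicate 4 was the lowest of all 8 and the other 3 lay above every injured library (log2 fold change 0.21, SE 0.11, edgeR adjusted p = 0.166). Without replicate 4 it was 0.31 (adjusted p = 0.0143). With the GC and length trend removed it was 0.23 (adjusted p = 0.0284). In that setting all 9 tested members were called higher, where 1444 of 14771 tested genes were higher and 1843 lower. The 9 include Mmp12, which passed the filter only through the antibody-treated libraries. Timp3 shares 1733 of its 8144 annotated exon bases with Syn3 on the opposite strand. The deposited exon length of Timp3 is 4942 bases, so whether the shared bases were counted is not known. Syn3 had 2.85 ± 1.16 CPM in antibody-treated and 3.83 ± 0.93 CPM in injured libraries and was not called.

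**Figure D3:**
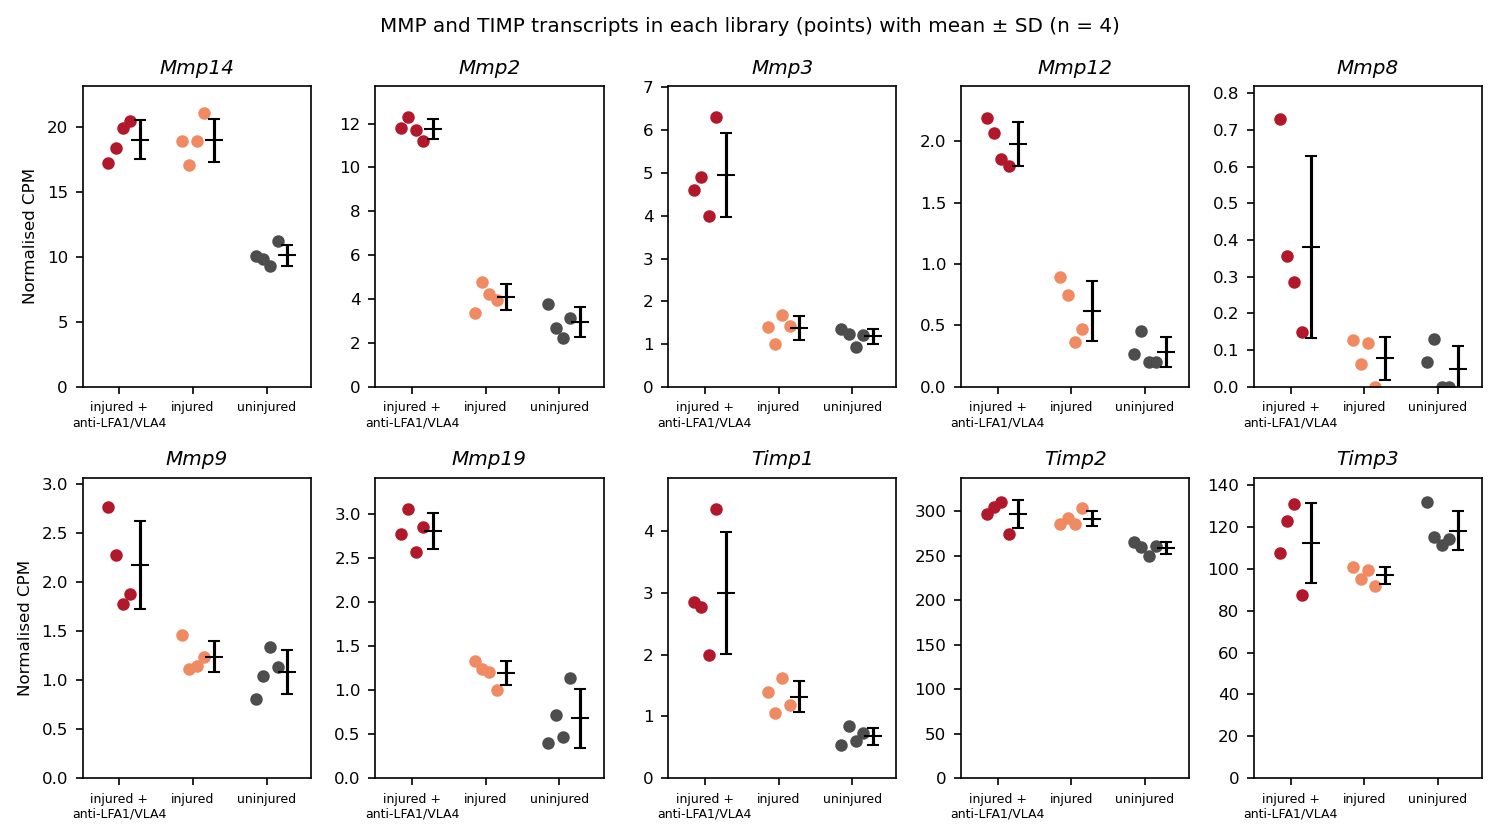
Normalised CPM of each member in each library (points) with mean ± SD of 4 libraries, for antibody-treated injured, injured and uninjured mice from left to right; each panel has its own axis from 0. Mmp2 and Mmp3 were high in antibody-treated tissue (11.7 and 4.95 CPM on average) and Mmp14 was about equal in both injured groups (19.0 CPM each) and lower in uninjured tissue (10.1 CPM).

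The second comparison asked what differed in injured tissue at day 20 without the antibodies. Mmp14 showed the firmest difference, and Mmp2, Mmp12, Mmp19, Timp1 and Timp2 were higher with adjusted p-values between 0.0365 and 0.0466. That made 6 of 10 members higher and 0 lower at an edgeR adjusted p under 0.05 (1 lower, Timp3, at an unadjusted p under 0.05), where 11.9% of tested genes were called higher and 11.0% lower. Mmp12 is among the 6 but reached the filter's level in only 2 injured and 0 uninjured libraries. It was tested only through the antibody-treated libraries, so its call is no support for a difference. Mmp3 and Mmp9 were not called. The libraries did not overlap for 3 members that were higher and 1 that was lower, against 17.4% and 12.9% of tested genes. The median log2 fold change was 0.47 over the 9 tested members, Mmp12 included, and 0.03 over all tested genes. Of all called genes 51.9% were higher with TMM scaling and 76.0% with library size alone. This comparison shares the injured libraries with the first.

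Mmp14 averaged 19.0 ± 1.64 CPM in injured and 10.1 ± 0.79 CPM in uninjured libraries (SD, n = 4 each). The uninjured libraries had 10.1, 9.84, 9.33 and 11.2 CPM, all below the lowest injured library. The log2 fold change was 0.91 (SE 0.09, edgeR adjusted p = 9.36e-05), with a 95% interval of 1.64-fold to 2.15-fold. The call held in all 27 alternative settings (other scalings, filters, tools and designs, and each library left out).

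Mmp2 averaged 4.09 ± 0.59 CPM in injured and 2.95 ± 0.66 CPM in uninjured libraries, where single values were 3.76, 2.67, 2.21 and 3.15 CPM. The groups overlapped through uninjured replicate 1 (log2 fold change 0.47, SE 0.15, edgeR adjusted p = 0.0441). Mmp12 had 14, 12, 6 and 8 reads in injured libraries, against 4, 7, 3 and 3 reads in uninjured libraries, which overlapped (log2 fold change 1.09, SE 0.36, edgeR adjusted p = 0.0445). Mmp19 averaged 1.2 ± 0.14 CPM in injured and 0.683 ± 0.33 CPM in uninjured libraries, and uninjured replicate 4 at 1.14 CPM overlapped the injured group (log2 fold change 0.80, SE 0.27, edgeR adjusted p = 0.0466). All 3 of these proteases were called although their groups overlapped.

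Timp1 averaged 1.32 ± 0.25 CPM in injured libraries, against 0.538, 0.847, 0.604 and 0.738 CPM in the 4 uninjured libraries, without overlap (log2 fold change 0.94, SE 0.29, edgeR adjusted p = 0.0365). Timp2 averaged 291 ± 8.59 CPM in injured and 259 ± 6.93 CPM in uninjured libraries, without overlap, a small difference (log2 fold change 0.17, SE 0.05, edgeR adjusted p = 0.0378). Timp3 ran the other way, with 96.8 ± 4.10 CPM in injured and 118 ± 9.33 CPM in uninjured libraries. Its groups did not overlap, but the test was not passed (log2 fold change -0.29, SE 0.11, edgeR adjusted p = 0.0634), and it was passed in 6 of 27 alternative settings, among them without antibody-treated replicate 3 or 4 (adjusted p = 0.0274 and 0.0139).

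Mmp3 had 1.38 ± 0.28 CPM in injured and 1.18 ± 0.17 CPM in uninjured libraries, which overlapped (edgeR adjusted p = 0.486, 95% interval 0.83-fold to 1.63-fold). Mmp9 had 1.24 ± 0.16 CPM in injured and 1.1 ± 0.22 CPM in uninjured libraries, which overlapped too (edgeR adjusted p = 0.552, 95% interval 0.83-fold to 1.58-fold). Mmp8 had 5 reads over the injured group and 3 over the uninjured group (exact permutation test, two-sided, p = 0.4).

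Each of these calls other than Mmp14 was lost when some single libraries were left out. Over 27 alternative settings Mmp2 was called in 13, Mmp19 in 9, Timp1 in 16 and Timp2 in 12, and Mmp12 in 14 of 26. With only the injured and uninjured libraries in the fit, Mmp12 did not pass the filter and was not tested. The Mmp2 call was lost without uninjured replicates 2, 3 or 4, injured replicates 2, 3 or 4, or antibody-treated replicates 1 or 2 (edgeR adjusted p = 0.0595 to 0.125). The Mmp12 call was lost without uninjured replicates 1, 3 or 4, injured replicates 1, 2 or 4, or antibody-treated replicates 1 or 2 (0.0571 to 0.127), and the Mmp19 call without uninjured replicates 1, 2 or 3, any injured replicate, or antibody-treated replicates 1, 2 or 3 (0.0505 to 0.137). The Timp1 call was lost without uninjured replicates 1, 3 or 4, any injured replicate, or antibody-treated replicate 2 (0.051 to 0.106), and the Timp2 call without any 1 uninjured or injured replicate or antibody-treated replicates 1 or 2 (0.0547 to 0.141). With the GC and length trend removed the Timp2 change was 0.03 (adjusted p = 0.696).

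The last comparison set antibody-treated tissue against uninjured tissue and shares its libraries with the other comparisons. All members except Mmp8 and Timp3 were called higher, 8 of 10, where 6.3% of tested genes were called higher and 3.22% lower. Mmp12 is among the 8 although it passed the filter only through the antibody-treated libraries, so its call is no support. The libraries did not overlap for 9 members, all higher, against 9.01% of tested genes higher and 6.56% lower. These 9 include Mmp12 and also Mmp8, which is not among the tested genes. Mmp12 had 1.98 ± 0.18 CPM in antibody-treated and 0.282 ± 0.12 CPM in uninjured libraries (log2 fold change 2.77, SE 0.30, edgeR adjusted p = 6.31e-05). No uninjured library reached the filter's level for Mmp12, and its log2 fold change ranged from 0.89 to 3.10 over the alternative settings, so its rank among the members was not determined. Timp1 had 2.99 ± 0.99 CPM in antibody-treated and 0.682 ± 0.14 CPM in uninjured libraries (log2 fold change 2.11). Mmp3, Mmp19 and Mmp2 had log2 fold changes of 2.06, 2.03 and 1.99, and Mmp9 was at 1.0 (edgeR adjusted p = 0.00735).

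Mmp14 differed in this comparison by 0.91 (SE 0.09, edgeR adjusted p = 2.92e-05), the same size as in injured against uninjured tissue. Timp2 was higher by 0.20 (SE 0.05, edgeR adjusted p = 0.0364), a call made in 11 of 27 alternative settings and lost without any 1 uninjured replicate, injured replicates 1, 2 or 3, or antibody-treated replicates 1 or 2 (adjusted p = 0.0541 to 0.112). Timp3 had 112 ± 19.1 CPM in antibody-treated and 118 ± 9.33 CPM in uninjured libraries, which overlapped (edgeR adjusted p = 0.656). Mmp8 had 21 reads over the antibody-treated group and 3 over the uninjured group (exact permutation test, two-sided, p = 0.0286, the smallest possible).

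**Figure D4:**
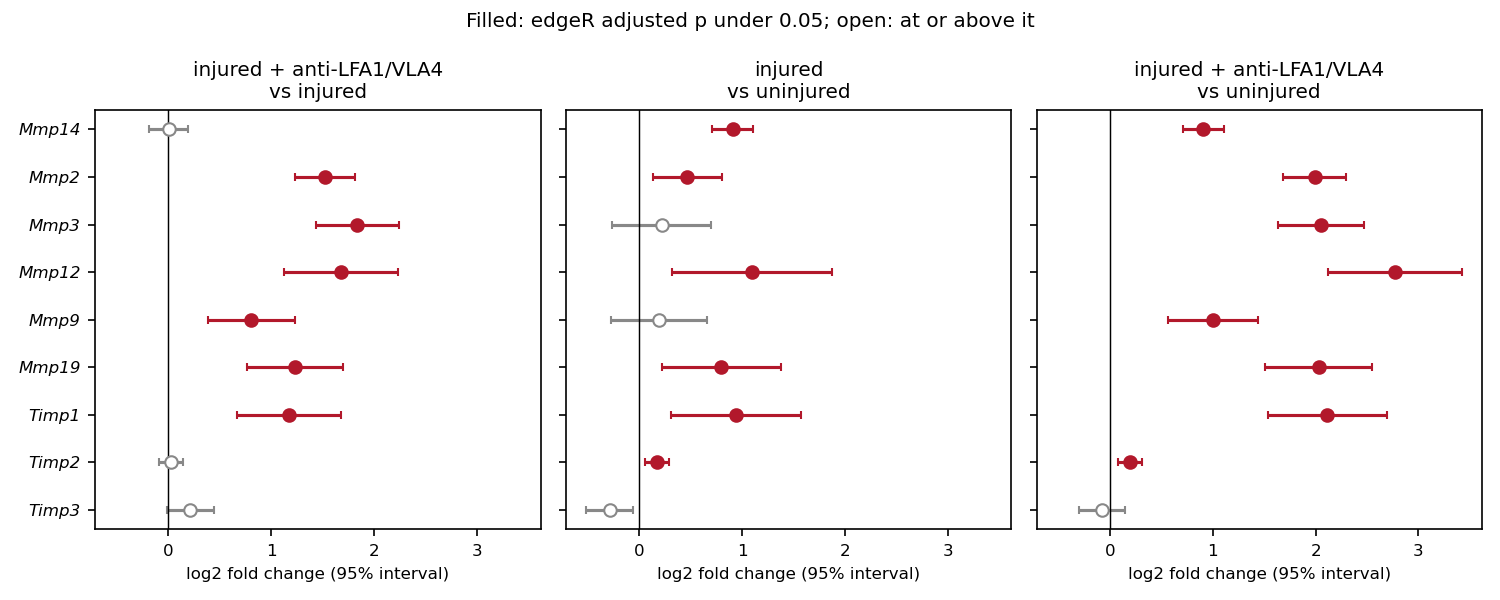
Log2 fold change of the 9 tested members with its 95% interval in antibody-treated against injured, injured against uninjured and antibody-treated against uninjured tissue; filled points passed an edgeR adjusted p under 0.05. Mmp14 lies at 0.00 in the first panel and at 0.91 in the others, while Mmp3 lies at 1.84, 0.22 and 2.06.

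Antibody-treated replicate 4 stood at an end of several members' ranges. It had the most Timp1, Mmp3 and Mmp14 and the least Mmp2, Mmp8, Mmp12, Timp2 and Timp3 of its group in CPM. Without it the log2 fold change against injured tissue was 0.94 for Timp1 and 1.70 for Mmp3, and both were still called. The calls of Mmp2, Mmp3, Mmp12, Mmp19 and Timp1 in antibody-treated against injured tissue held in all 27 alternative settings. Mmp12 passed the filter only through the antibody-treated libraries, so for Mmp12 this is no support.

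The other MMPs and Timp4 made up a list of 17 genes, of which 10 passed the count filter. In antibody-treated against injured tissue 1 was higher and 2 were lower. Mmp13, a collagenase of the chromosome 9 cluster known from cartilage and bone, had 1.81 ± 0.22 CPM in antibody-treated and 0.229 ± 0.073 CPM in injured libraries (SD, n = 4 each; log2 fold change 2.94, SE 0.31, edgeR adjusted p = 6.59e-05). It reached the filter's level in 4 antibody-treated, 0 injured and 0 uninjured libraries, so it was tested only through the group in which it was high, and its count is no support for a difference. The AP-1 match in its window is TGACTCA, 35 bases before the start. Mmp17 and Mmp24, both membrane-anchored, were slightly lower (log2 fold changes -0.19 and -0.23, edgeR adjusted p = 0.0227 and 0.0476), and Mmp17 stood at 0.04 with the GC and length trend removed. Mmp17 was called in 19 of 27 alternative settings and not without injured replicates 1 or 4 or antibody-treated replicate 2. Mmp24 was called in 9 of 27, and of the single libraries only antibody-treated replicate 3 could be left out without losing the call. In injured against uninjured tissue Mmp15 alone was called, higher by 0.25 (edgeR adjusted p = 0.0465). That call was made in 9 of 27 alternative settings and was lost without any 1 library except injured replicate 1 and antibody-treated replicate 4. Timp4 had 37.4 ± 7.20 CPM in antibody-treated, 36.4 ± 1.27 in injured and 32.1 ± 1.08 in uninjured libraries and was not called in any comparison. No library held a read of Mmp1a, Mmp1b, Mmp7 or Mmp20, and Mmp10, Mmp21 and Mmp27 had too few reads for the test.

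Among 17 genes of the plasminogen system, MMP activators and other protease inhibitors, 15 were tested. In antibody-treated against injured tissue A2m, a broad protease inhibitor, was higher by 0.53 (edgeR adjusted p = 0.000255). Serpina3n, a serine protease inhibitor, was higher by 0.45 (edgeR adjusted p = 0.000359), and Furin, which cleaves the proform of Mmp14, was lower by a log2 fold change of -0.32 (edgeR adjusted p = 0.0245). In injured against uninjured tissue 7 of the 15 were higher, against 11.9% of all tested genes. Among them were Serpina3n at 1.18, A2m at 0.93 and Plau, the urokinase gene, at 0.43. Serpinf2, the plasmin inhibitor alpha-2-antiplasmin, was at 1.87, and at 0.82 to 2.07 over the alternative settings. It reached the filter's level in 4 antibody-treated, 3 injured and 0 uninjured libraries, so its test rested on the antibody-treated libraries passing the filter. Among 13 cathepsins, lysosomal proteases of which 10 were tested, 5 were higher in antibody-treated against injured tissue and the rest were not called, among them Ctsc (0.76) and Ctsk (0.68). In injured against uninjured tissue 5 were also higher and the rest not called, among them Ctsz (0.63), Ctsd (0.58), Ctss (0.53) and Ctsh (0.45). Among 17 ADAM and ADAMTS proteases, all tested, 1 was higher (Adam10, 0.47) and 1 lower (Adam15, -0.25) in antibody-treated against injured tissue, and 3 were higher and 3 lower in injured against uninjured tissue. In antibody-treated against injured tissue the calls of Furin, Adam10 and Adam15 were made in 19, 23 and 25 of 27 alternative settings.

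Markers of several cell types also differed between antibody-treated and injured tissue. Of 11 neutrophil markers, 5 were tested and 4 were called higher in antibody-treated than in injured tissue (S100a9, S100a8, Ngp and Ltf). All 4 of these passed the filter only through the antibody-treated libraries, as did 1 of the 6 monocyte, 5 of the 8 skeletal muscle and all 3 of the bone and osteoclast markers called higher, so those counts are no support, and the lists are described by their summed levels. The neutrophil sum was 46.7 to 66.4 TPM in antibody-treated, 14.9 to 17.9 in injured and 7.90 to 10.8 in uninjured libraries, and Ly6g had no read in any group. Of 12 monocyte and border macrophage markers, 11 were tested and 6 were higher, with sums of 354 to 451 TPM in antibody-treated, 180 to 211 in injured and 82.9 to 93.3 in uninjured libraries. Of 12 fibroblast and meningeal markers, all tested, 7 were higher, with sums of 273 to 346, 131 to 158 and 107 to 116 TPM in the same groups. Of 8 skeletal muscle markers, all 8 were called higher, with 149 to 189 TPM in antibody-treated, 19.7 to 26.7 in injured and 14.2 to 19.0 in uninjured libraries. Of 8 bone and osteoclast markers, 5 were tested and 3 were called higher, with 17.5 to 24.6, 4.99 to 10.5 and 2.66 to 4.30 TPM, and Bglap had no read in uninjured libraries. All 8 choroid plexus markers were higher as well, with 2799 to 3887 TPM in antibody-treated, 1990 to 2494 in injured and 2292 to 2791 in uninjured libraries. Unlike the members, 5 of these 8 were lower and 0 higher in injured against uninjured tissue. Microglia markers summed to 401 to 416 TPM in antibody-treated, 372 to 397 in injured and 322 to 349 in uninjured libraries, without overlap between groups. Of these 8 markers 3 were higher in antibody-treated against injured tissue, and 1 was higher and 2 lower in injured against uninjured tissue. All of these TPM sums carry a shift over all genes. On log2(TPM + 1) the median change of all tested genes was 0.16 in injured against uninjured tissue, and 0.03 with TMM scaling. In antibody-treated against injured tissue it was -0.13 and 0.01. In antibody-treated against injured tissue 0 astrocyte and 0 endothelial markers were called, and 1 of 8 pericyte and smooth muscle markers was higher. Neuron markers had 2 higher and 4 lower there, and oligodendrocyte markers 2 higher and 2 lower. The part of any of these in the MMP and TIMP differences was not tested.

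**Figure D5:**
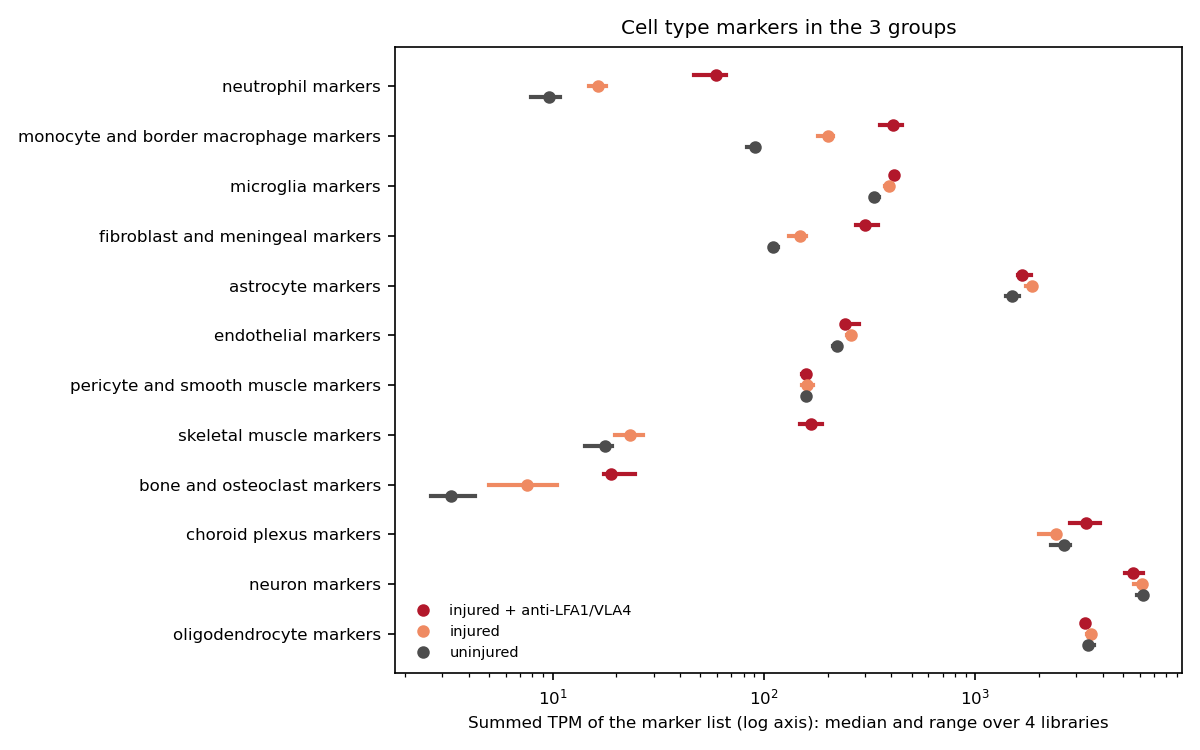
Summed TPM of 12 cell type marker lists on a log axis, as the median (points) and range (lines) over 4 libraries, for antibody-treated injured, injured and uninjured mice from top to bottom within each list. Neutrophil, monocyte, fibroblast, skeletal muscle and bone sums lie highest in antibody-treated libraries, with skeletal muscle at 149 to 189 TPM against 19.7 to 26.7 TPM in injured libraries.

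The genes most like each tested member were ranked by Pearson's r of log2 CPM over the 12 libraries, among up to 13449 genes. This ranking is a description, since all 12 libraries share the 3 groups, whose differences enter every r. Mmp2 was most like Cd84 (r = 0.98), Col5a2 (0.98) and Col1a1 (0.97). Mmp3 was most like the immunoglobulin genes Jchain (0.98) and Igkc (0.98) and Slc6a3 (0.97). Mmp14 was most like Itgax (0.98), the complement gene C4b (0.97) and the astrocyte filament gene Gfap (0.97). Mmp9 was most like Emp1 (0.94), Mmp19 was most like Pi16 (0.97), and Timp1 was most like Slc7a7 (0.98), Ccl6 (0.97) and Irf7 (0.97). Timp2 was most like Synpo2 (0.94) and Timp3 was most like Steap2 (0.98).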

How the data were processed

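Total RNA libraries of 12 mice were prepared from 500 ng each with a stranded kit. The tools named in the submitters' processing notes are Trimmomatic 0.39, FastQC 0.11.8 and CASAVA 1.8.2, with build GRCm38. Which aligner and counter were used, and whether strand was used, is not given in the sources used here. The authors deposited, per the file headers, read counts over exons, introns and junctions and TPM, and exon counts over exon length gave the deposited TPM back in all libraries. All 25749 gene identifiers matched GENCODE M21.

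Total exon counts were tested with edgeR 4.0.16 in R 4.3.3: filterByExpr by group (14771 genes), TMM scaling, 1 quasi-likelihood fit of 12 libraries with group as the only term (9 residual degrees of freedom), two-sided, Benjamini-Hochberg over all tested genes at 0.05. The code was tested on simulated counts. Mmp8, removed by the filter, was compared by an exact permutation test of TPM. The members and all gene lists were chosen with earlier results of these data known. Named are all members, and from other lists at most the 4 called genes of smallest p in each comparison, the genes without reads and those removed by the filter. Alternatives were other scalings, filters, tools (DESeq2 1.42.0, limma 3.58.1), log2(TPM) values, a replicate block and each library left out, and, chosen after seeing the data, both extreme libraries left out. Levels carry the SD over 4 mice. Amino acid sequences were not used here. The likeness ranking of Mmp12 is not reported here.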

Additional observations from a re-analysis of the deposited data

How the results depend on the processing

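In antibody-treated against injured tissue, the 6 member calls held in all 27 alternative settings except that of Mmp9 in the test against a fold of 1.2. The Mmp12 call among them is no support, since Mmp12 passed the filter only through the antibody-treated libraries. Mmp14 and Timp2, not called, changed sign with scaling: Mmp14 was at -0.0267 with library size alone, -0.14 on log2(TPM + 1), -0.15 on log2(TPM + 0.1), -0.0029 with only the 2 groups compared, -0.038 without both extreme libraries (uninjured replicate 1 and antibody-treated replicate 4), and -0.047 to 0.068 with single libraries left out. Timp2 was at -0.0017, -0.13 and -0.13 in the first 3 of these. Mmp17 was at 0.036 with the GC and length trend removed. In antibody-treated against uninjured tissue Timp3 was at 0.064 without both extreme libraries and at -0.16 to 0.028 with single libraries left out. Over all tested genes the median change was -0.13 and -0.15 on the TPM scales and 0.01 with TMM scaling in antibody-treated against injured tissue. In injured against uninjured tissue it was 0.16 and 0.18 on the TPM scales, 0.11 with library size alone and 0.03 with TMM scaling. The cause of these changes was not tested.

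The number of members higher in injured against uninjured tissue, 6, was 3 with DESeq2 size factors, 2 with no filter, 3 with only the 2 groups compared, 1 against a fold of 1.2, 2 after removal of the GC and length trend, and 1 to 6 with single libraries left out. The 6 include Mmp12, which passed the filter only through the antibody-treated libraries. The number lower, 0, was 1 (Timp3) with DESeq2's Wald test, with only the 2 groups compared, after removal of the GC and length trend, and without both extreme libraries, and 0 to 1 with single libraries left out.

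Over all genes, antibody-treated against injured tissue had 672 higher and 3531 lower on log2(TPM + 1), 649 and 3500 on log2(TPM + 0.1), 1058 higher with only the 2 groups compared, 290 and 146 against a fold of 1.2, 2062 and 2014 without both extreme libraries, and 1053 to 1957 higher and 837 to 1816 lower with single libraries left out. Injured against uninjured tissue had 3157 higher and 995 lower with library size alone, 4869 and 331 on log2(TPM + 1), 4864 and 334 on log2(TPM + 0.1), 2511 lower with only the 2 groups compared, 171 and 40 against a fold of 1.2, 929 higher after removal of the GC and length trend, and 685 to 2431 higher and 580 to 2417 lower with single libraries left out. Antibody-treated against uninjured tissue had 201 lower with library size alone, 883 with DESeq2's Wald test, 146 and 144 on the TPM scales, 232 with only the 2 groups compared, 445 higher and 26 lower against a fold of 1.2, 1958 lower with the GC and length trend removed, 517 higher and 244 lower without both extreme libraries, and 640 to 2054 higher and 213 to 1915 lower with single libraries left out.

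Replicate numbers did not pair the samples: deviations of same-numbered libraries correlated at -0.53 to 0.43 in 12 pairs, 2 of them over 0.1, and 0 of 12 libraries correlated best with its own number. With a replicate block, 2 members were higher in injured against uninjured tissue, and 213 genes were lower in antibody-treated against uninjured tissue. Few reads limit Mmp8 (29 over all libraries), Mmp12 (166), Mmp9 (266), Mmp19 (274) and Timp1 (291) most.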
